A study of Mus musculus with 5 samples.

Results

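Apolipoproteins are the protein parts of lipoproteins, the particles that carry cholesterol, triglyceride and other lipids through the blood. Particles rich in triglyceride are built around apolipoprotein B in the endoplasmic reticulum, where the microsomal triglyceride transfer protein loads lipid onto it, while high-density particles form around apolipoproteins A-I and A-II. In the adult the liver and the small intestine are the main sources, and in the early embryo the visceral endoderm of the yolk sac makes lipoproteins.

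The 7 genes of apolipoproteins and lipoprotein assembly described here are Apoa1, Apoa2, Apob, Apoc1, Apoc2, Apom and Mttp. They were taken by exact gene name from a table with 12375 named loci, and each name matched 1 locus. The libraries came from C57BL/6J mouse embryos, at E10.5 from liver and from the ventral and dorsal pancreas, and at E8.5 from medial foregut and foregut, where E gives the embryonic day. The study profiled progenitors of liver and pancreas, organs that bud from foregut endoderm. Each tissue is represented by a single poly(A) library read in paired ends, and the sources used here do not say how tissue was isolated or whether embryos were pooled. There is therefore no replicate error and no test, and every value is a description of 1 library. Levels are in FPKM, which by definition scales fragments to transcript length and to the mapped total, so they are per length. They can be compared between genes, with less certainty where a locus overlaps or joins another gene. In bulk RNA, fewer cells of a type and less RNA per cell cannot be told apart.

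The liver library was the highest for all 7 genes, and ventral pancreas came next for each. Summed over the 7, the level was 2933 FPKM for liver, 311 for ventral pancreas, 24.6 for dorsal pancreas, 31.8 for medial foregut and 33.8 for foregut. These sums made up 0.583% of all FPKM in liver, 0.0657% in ventral pancreas and 0.00561% to 0.00740% in the other 3. In what follows, "higher" and "lower" between libraries are used of a gene whose log2(FPKM + 1) differed by at least 2, which is 4 times in FPKM + 1, with at least 5 FPKM in the higher library. By this size rule 7 of 7 were higher in liver than in each of the other 4 libraries, beside 0.824% of named loci.

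**Figure D1:**
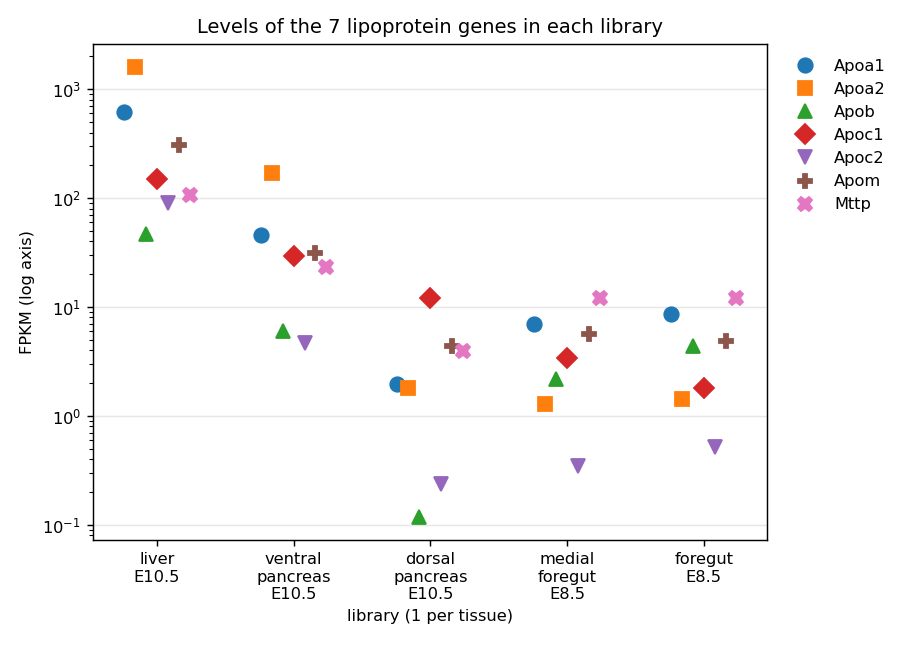
Level of each of the 7 genes in FPKM (log axis, symbols set side by side so that all can be seen) in the 5 libraries, 1 per tissue and so without error bars. In liver the genes lie between 46.5 and 1618 FPKM, and in dorsal pancreas, medial foregut and foregut none exceeds 12.2 FPKM.

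In liver and ventral pancreas the genes for proteins of high-density particles had the highest levels of the 7. For Apoa2, which encodes apolipoprotein A-II (chromosome 1, 173148003 to 173156871 in mm9), liver had 1618 FPKM, ventral pancreas 170.2, dorsal pancreas 1.79, medial foregut 1.29 and foregut 1.44. Among named loci its rank was 10 in liver and 245 in ventral pancreas, against 10189, 10278 and 10116 in dorsal pancreas, medial foregut and foregut. Liver was 9.51 times ventral pancreas and 904 times dorsal pancreas. The locus, which shares its interval with Tomm40l, spans 669% of the annotated gene. Whether this span bears on the FPKM, by definition scaled to transcript length, was not tested.

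Apoa1 encodes apolipoprotein A-I, the main protein of high-density particles and the activator of the plasma enzyme that esterifies cholesterol (chromosome 9, 46036590 to 46039446). For this gene liver had 618 FPKM, ventral pancreas 45.8, dorsal pancreas 1.97, medial foregut 6.91 and foregut 8.56. Dorsal pancreas was thus below both E8.5 libraries, though by less than the size rule. Apoa2 stood at 2.62 times the level of Apoa1 in liver and 3.71 times in ventral pancreas. It stood at 0.907 times in dorsal pancreas, and at 0.186 and 0.168 times in medial foregut and foregut. The ratios in dorsal pancreas, medial foregut and foregut are uncertain. They rest on 1.79, 1.29 and 1.44 FPKM of Apoa2, from a locus that shares its interval with Tomm40l.

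Apom encodes apolipoprotein M, a lipocalin that carries sphingosine-1-phosphate on high-density particles (chromosome 17, 35265941 to 35269597). Here liver had 304 FPKM, ventral pancreas 31.4, dorsal pancreas 4.40, medial foregut 5.66 and foregut 4.91. Dorsal pancreas and both E8.5 libraries lay within 0.30 of each other on the log2(FPKM + 1) scale.

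Apob, the scaffold of triglyceride-rich particles, was the least abundant of the 7 in liver (chromosome 12, 7984141 to 8022806). For Apob, liver had 46.5 FPKM, ventral pancreas 6.03, dorsal pancreas 0.117, medial foregut 2.20 and foregut 4.34. Ventral pancreas lay close to foregut, with a difference of 0.40, and dorsal pancreas had the lowest value of any of the 7 genes in any library. For Mttp, the lipid-loading protein (chromosome 3, 137752427 to 137822835), liver had 107 FPKM, ventral pancreas 23.4, dorsal pancreas 3.90, medial foregut 12.02 and foregut 12.2. Mttp was the most abundant of the 7 in both E8.5 libraries, at 37.8% of the summed level in medial foregut and 36.1% in foregut, compared with 3.64% in liver. Its level in liver was 8.75 times that in foregut, the smallest such ratio of the 7, whereas for Apoa2 it was 1125 times.

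The C apolipoproteins are small proteins that move between particles, and their genes lie near each other on chromosome 7. For Apoc1, whose product slows the clearance of particles (chromosome 7, 20274830 to 20278840), liver had 149 FPKM, ventral pancreas 29.5, dorsal pancreas 12.2, medial foregut 3.42 and foregut 1.80. For Apoc2, whose product activates lipoprotein lipase (chromosome 7, 20253455 to 20266759), liver had 90.9 FPKM, ventral pancreas 4.66, dorsal pancreas 0.235, medial foregut 0.348 and foregut 0.519. The locus of Apoc2 spans 209% of the annotated gene. Apoc1 was at 1.64 times the level of Apoc2 in liver, 6.35 times in ventral pancreas and 51.8 times in dorsal pancreas. The ratio of 51.8 is uncertain, since it rests on 0.235 FPKM of Apoc2 in 1 library of unknown read depth. In dorsal pancreas Apoc1 made up 49.5% of the sum over the 7 genes, against 5.08% in liver.

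From high to low, the order in liver was Apoa2, Apoa1, Apom, Apoc1, Mttp, Apoc2 and Apob. Ventral pancreas had the same order except that Apob, at 6.03 FPKM, came before Apoc2, at 4.66 FPKM. In dorsal pancreas it was Apoc1, Apom, Mttp, Apoa1, Apoa2, Apoc2 and Apob, and in foregut Mttp, Apoa1, Apom, Apob, Apoc1, Apoa2 and Apoc2. Medial foregut differed from foregut only in that Apoc1 came before Apob. Whether neighbours in an order differ beyond error cannot be told from 1 library each.

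Because all 7 genes were highest in liver, the sequence before the start is shown for 4 of them. The windows are RefSeq sequences on GRCm38.p6, another build than the mm9 of the table, and hold the 250 bases before an annotated start, read 5′ to 3′ on the gene's strand. Those of Apoa1 at chr9:46228380-46228629, Apoa2 at chr1:171224804-171225053 and Apob at chr12:7977427-7977676 are on the plus strand, and that of Apom at chr17:35131802-35132051 is on the minus strand. Capitals mark letters, on either strand, known for forkhead factors of the FOXA type (TGTTTAC or TGTTTGC), C/EBP factors (TTGCNNAA) and the TBP site (TATAAA).
Apoa1: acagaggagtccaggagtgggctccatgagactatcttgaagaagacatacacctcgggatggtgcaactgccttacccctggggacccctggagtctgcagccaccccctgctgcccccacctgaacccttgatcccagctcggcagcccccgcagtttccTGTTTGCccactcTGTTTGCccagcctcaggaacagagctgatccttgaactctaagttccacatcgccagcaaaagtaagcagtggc
Apoa2: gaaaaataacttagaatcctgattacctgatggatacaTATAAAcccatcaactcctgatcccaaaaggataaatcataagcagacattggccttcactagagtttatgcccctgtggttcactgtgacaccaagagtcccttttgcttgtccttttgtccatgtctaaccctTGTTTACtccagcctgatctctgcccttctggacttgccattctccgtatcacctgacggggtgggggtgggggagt
Apob: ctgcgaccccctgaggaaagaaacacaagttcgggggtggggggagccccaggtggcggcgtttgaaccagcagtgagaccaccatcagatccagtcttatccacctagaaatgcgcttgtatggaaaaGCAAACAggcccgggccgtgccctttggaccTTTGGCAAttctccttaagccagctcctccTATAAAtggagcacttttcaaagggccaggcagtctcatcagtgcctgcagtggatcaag
Apom: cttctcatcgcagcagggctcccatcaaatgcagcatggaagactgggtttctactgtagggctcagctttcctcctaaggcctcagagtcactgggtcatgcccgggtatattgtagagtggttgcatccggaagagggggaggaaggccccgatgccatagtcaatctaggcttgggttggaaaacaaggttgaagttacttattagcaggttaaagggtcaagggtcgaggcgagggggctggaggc

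Apoa1 has TGTTTGC 88 and 75 bases before the start, counted to the first letter in reading order. Apoa2 has TGTTTAC at 77 and TATAAA at 212, and Apob has TGTTTGC at 121 on the other strand, the C/EBP letters at 90 and TATAAA at 60. Windows were found for 6 of the 7 genes, 7 windows in all since Apoa2 has a further start upstream. Both strands of these and of 32851 windows of all genes were searched. TGTTTGC was in 2 of the 7, beside 4.30% of all windows, and TGTTTAC in 1, beside 3.17%. TTGCNNAA was in 2, beside 9.56%, AGGTCA, known for nuclear receptors, in 2, beside 14.0%, and TATAAA in 2, beside 12.4%. CAAAGTCCA, known for HNF4A, and GTTAATNAT, known for HNF1, were in 0, beside 0.384% and 0.737%. None of these letters was in the Apom and Mttp windows. A match is one of letters only.

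Liver exceeded the pancreatic buds in every one of the 7 genes. In liver minus ventral pancreas 7 of 7 genes were higher, beside 1.24% of named loci, and 0 lower, beside 2.76%. The median difference was 3.24 beside -0.17 over all named loci, with Mttp lowest at 2.14, just past the size rule, and Apoc2 highest at 4.02. In liver minus dorsal pancreas 7 of 7 genes were higher, beside 2.12% of named loci, and 0 lower, beside 3.35%. The median there was 5.82 beside -0.16 over all named loci, with Apoc1 lowest at 3.51 and Apoa2 highest at 9.18. Both comparisons share the liver library. Scaling by median ratios moved the median of all named loci to -0.05 in both, and scaling to equal totals moved it to -0.24 against ventral and -0.33 against dorsal pancreas, with 7 of 7 genes still higher in each.

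**Figure D2:**
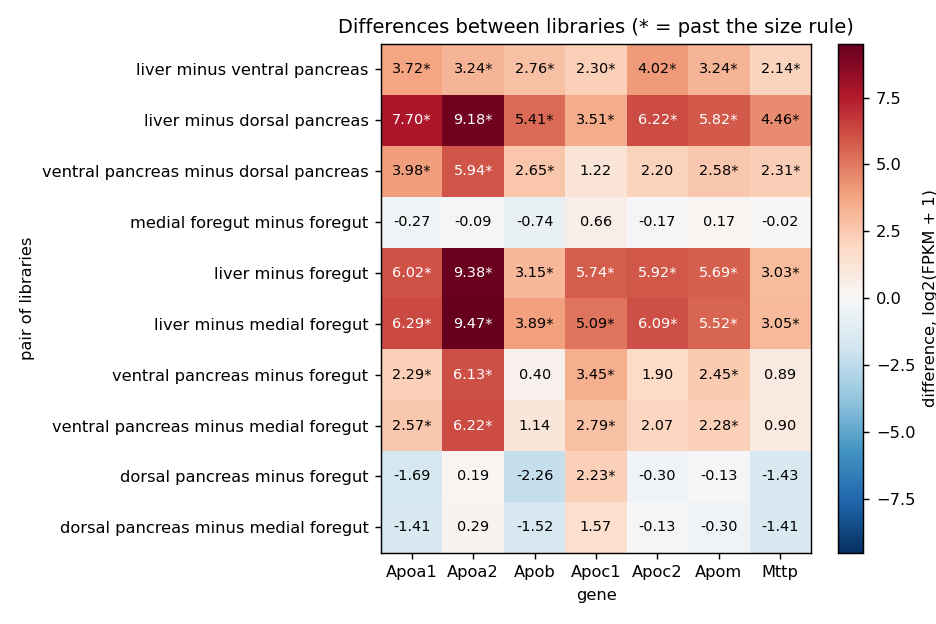
Difference in log2(FPKM + 1) for each gene (columns) and pair of libraries (rows, the library named before "minus" less the other), with an asterisk where the size rule was met. Every cell that sets liver against another library carries an asterisk, and no cell that sets medial foregut against foregut does.

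The buds differed from each other as well. In ventral minus dorsal pancreas 5 of 7 genes were higher, beside 0.913% of named loci, and 0 lower, beside 0.768%, and the median difference was 2.58 beside 0.01 over all named loci. The genes were Apoa2 with a difference of 5.94, Apoa1 with 3.98, Apob with 2.65, Apom with 2.58 and Mttp with 2.31. Apoc2 differed by 2.20, but its 4.66 FPKM in ventral pancreas lay just under the minimum of 5, whereas Apob, at 6.03 FPKM, lay just over it. Apoc1, at 29.5 FPKM in ventral and 12.2 FPKM in dorsal pancreas, differed by 1.22. With a pseudocount of 5 FPKM in place of 1 the count was 2, and without Apoa2 and Mttp, whose loci share their interval with a gene on the opposite strand, it was 3 of 5.

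Against the earlier tissue, liver was again higher for every one of the 7. In liver minus foregut 7 of 7 genes were higher, beside 2.49% of named loci, and 0 lower, beside 2.89%, with a median of 5.74 beside -0.09 over all named loci. In liver minus medial foregut 7 of 7 genes were higher, beside 2.51% of named loci, and 0 lower, beside 3.02%, with a median of 5.52 beside -0.08 over all named loci. Apoa2 differed most, by 9.38 from foregut and 9.47 from medial foregut, and Mttp least, by 3.03 and 3.05.

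Ventral pancreas exceeded the E8.5 tissues in Apoa1, Apoa2, Apoc1 and Apom. In ventral pancreas minus foregut 4 of 7 genes were higher, beside 2.29% of named loci, and 0 lower, beside 1.9%, and in ventral pancreas minus medial foregut 4 of 7 genes were higher, beside 2.4% of named loci, and 0 lower, beside 2.26%. Differences from foregut were 2.29 for Apoa1, 6.13 for Apoa2, 3.45 for Apoc1 and 2.45 for Apom. Mttp, Apob and Apoc2 did not meet the rule in either comparison, with differences from foregut of 0.89 for Mttp, 0.40 for Apob and 1.90 for Apoc2. From medial foregut Apoc2 differed by 2.07, but its 4.66 FPKM in ventral pancreas lay under the minimum of 5. With a minimum of 1 FPKM or none the count against medial foregut was 5. With a pseudocount of 5 FPKM the count against foregut was 2.

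In dorsal pancreas minus foregut 1 of 7 genes were higher, beside 1.71% of named loci, and 0 lower, beside 1.41%, and the 1 gene was Apoc1 with a difference of 2.23. In dorsal pancreas minus medial foregut 0 of 7 genes were higher, beside 1.78% of named loci, and 0 lower, beside 1.86%. Apob came close in the other direction, at 0.117 FPKM in dorsal pancreas and 4.34 FPKM in foregut, a difference of -2.26 that missed only the minimum of 5 FPKM. Apoa1 differed from foregut by -1.69 and Mttp by -1.43, both short of the size rule. Without regard to size, 5 of the 7 genes lay below both E8.5 libraries in dorsal pancreas and above both in liver and ventral pancreas. This pattern was seen in 2.55% of named loci, and in 9.98% of those with liver and ventral pancreas above both. All 7 genes had liver and ventral pancreas above both. The median over the 7 was -0.30 against foregut and -0.30 against medial foregut.

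Medial foregut and foregut were close in these genes. In medial foregut minus foregut 0 of 7 genes were higher, beside 0.00808% of named loci, and 0 lower, beside 0.0404%, and the median difference was -0.09. Apob, at 2.20 FPKM in medial foregut and 4.34 FPKM in foregut, and Apoc1, at 3.42 and 1.80 FPKM, differed most and in opposite directions.

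As a share of its liver level, ventral pancreas held 5.12% for Apoc2, 7.42% for Apoa1, 10.3% for Apom, 10.52% for Apoa2, 12.96% for Apob, 19.8% for Apoc1 and 21.9% for Mttp. The median of these shares was 10.52%, and that of other genes for proteins secreted by hepatocytes, of which 12 of 18 were found, was 10.6%. In that list Alb, for serum albumin, was at 9.23% and Trf, for transferrin, at 9.21%, whereas Ambp and Vtn were at 68.1% and 64.7%. In dorsal pancreas the 7 genes held 0.111% for Apoa2 to 8.16% for Apoc1, with a median of 0.319%, and the hepatocyte list had a median of 1.302%. The part of hepatic cells in the ventral pancreas library in these shares was not tested.

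**Figure D3:**
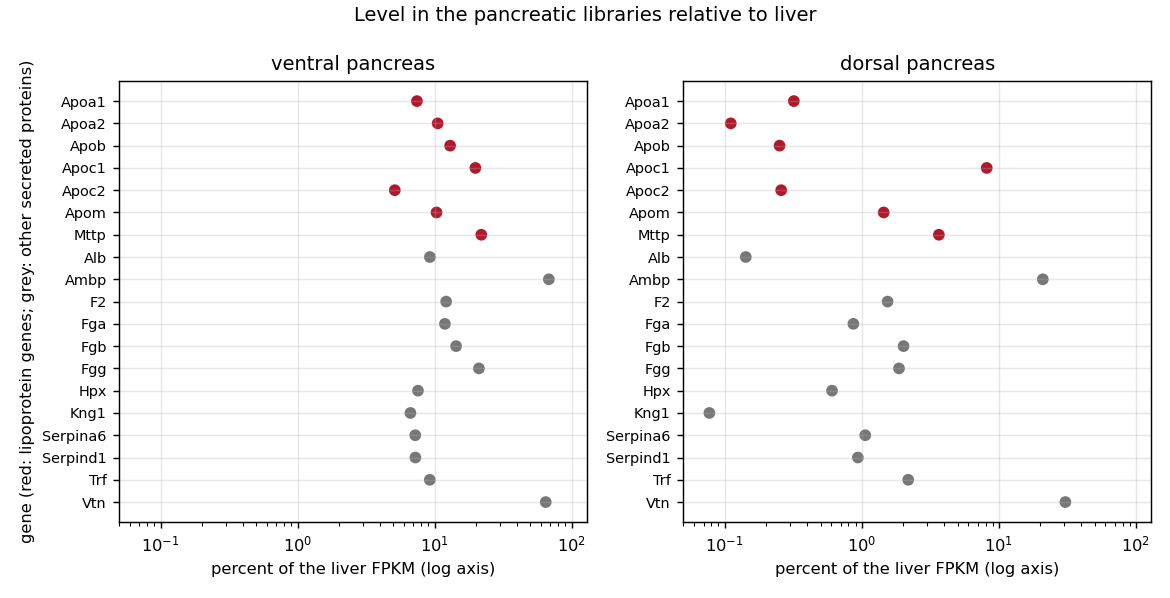
Level in ventral pancreas (left) and dorsal pancreas (right) as a percent of the liver FPKM (log axis) for the 7 lipoprotein genes (red) and 12 other genes for proteins that hepatocytes secrete (grey), 1 library per tissue. In ventral pancreas the red points lie between 5.12% and 21.9%, and in dorsal pancreas Apoc1, at 8.16%, and Mttp, at 3.65%, lie to the right of the other 5.

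Defining markers of liver and pancreas were detected in the libraries with those labels. Alb, the defining gene of hepatocytes, stood at 1051, 97.0, 1.497, 0.0231 and 0.226 FPKM in liver, ventral pancreas, dorsal pancreas, medial foregut and foregut. Pancreatic markers (10 of 12 found) summed to 2.97, 360.5, 1623, 28.3 and 28.9 FPKM in that order, and Ptf1a and Ins1 were listed at 0 in liver. The median of the 10 was 12.2 FPKM in ventral and 22.2 FPKM in dorsal pancreas, closer together than the sums. Markers of several other cell types varied between the libraries. Leukocyte markers (6 of 12 found) summed to 88.3, 3.40, 6.03, 2.37 and 1.69 FPKM, with C1qb, C1qc and Cx3cr1 listed at 0 in both E8.5 libraries, and macrophages can express Apoc1 and Apoc2. Cardiomyocyte markers (9 of 10) summed to 491, 25.7, 21.9, 9079.8 and 5271 FPKM and mesenchymal ones (11 of 12) to 287, 96.6, 268, 1259.8 and 776 FPKM. Endothelial markers (8 of 9) gave 134, 58.6, 71.9, 164 and 129.9 FPKM, erythroid ones (3 of 10) 24.5, 116, 27.2, 3.89 and 4.01 FPKM and intestinal ones (2 of 8) 2.06, 2.76, 2.05, 2.49 and 7.63 FPKM. For visceral endoderm 6 of 9 markers were found, with sums of 210.5, 339, 70.1, 213 and 132 FPKM. Of these, Cited1 made up most in liver and ventral pancreas, at 179 and 283 FPKM, Spink3 stood at 12.3, 15.5, 0.982, 137 and 68.8 FPKM, and Amn, which with Cubn forms an uptake receptor, stayed under 1 FPKM in all 5 libraries. The part of these cells in the results was not tested.

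Genes around the 7 loci were mostly level across the libraries. Bag6, a chaperone gene, is transcribed away from Apom with 64 bp between the loci. For Bag6 liver had 106 FPKM, ventral pancreas 104.8, dorsal pancreas 115, medial foregut 93.2 and foregut 94.2, a 1.23-fold range beside the 69.2-fold range of Apom. Rg9mtd2 shares the interval of Mttp on the opposite strand and stood between 8.64 and 9.69 FPKM, while Mttp ranged 27.4-fold. Sik3, a kinase gene 4202 bp before Apoa1, stood between 15.4 and 20.5 FPKM. Apoa5, for a regulator of plasma triglyceride, lies 36983 bp after Apoa1 and was at 1.71, 1.78, 0.207, 2.45 and 2.30 FPKM in liver, ventral pancreas, dorsal pancreas, medial foregut and foregut.

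Some neighbours did vary. Tomm40l has the interval of Apoa2 on the opposite strand, with 20.0 FPKM in liver and 9.04 to 9.41 FPKM in the other 4 libraries. Since no strand marking is described, reads from overlapping parts of such pairs cannot be told apart. The locus after Apoc1 joins Apoe and Tomm40, whose reads cannot be separated, and there liver had 854 FPKM, ventral pancreas 197, dorsal pancreas 61.4, medial foregut 160.1 and foregut 112. Clptm1, 2733 bp from Apoc2, had 84.8 FPKM in liver and 51.1 to 64.3 FPKM elsewhere.

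**Figure D4:**
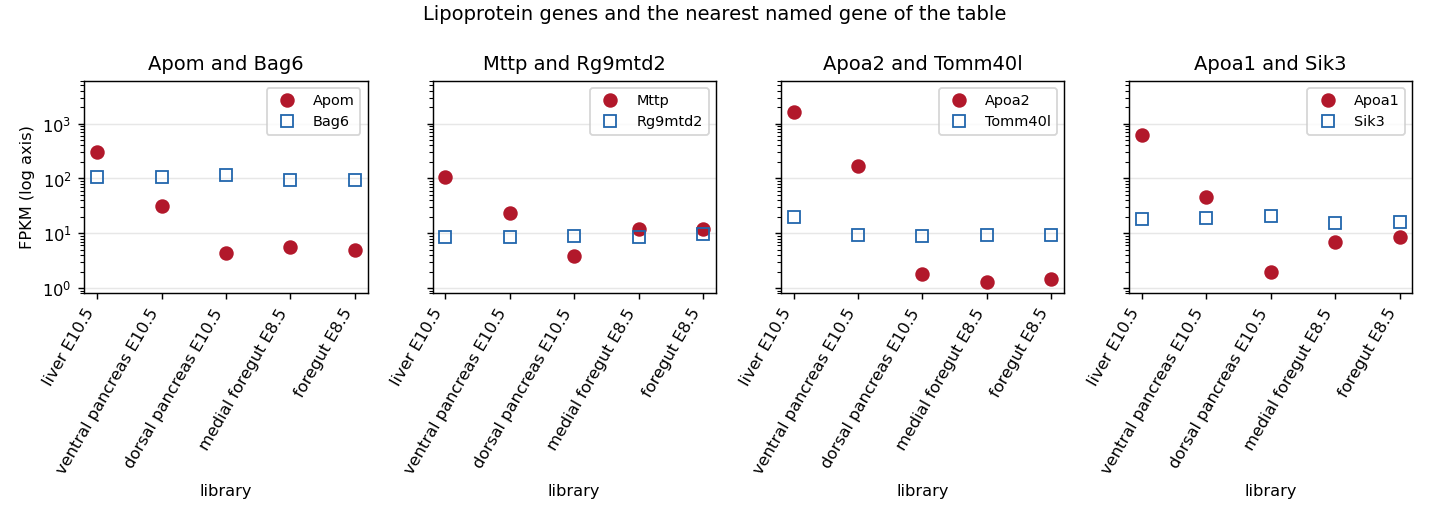
Levels in FPKM (log axis) of 4 lipoprotein genes (red circles) and the nearest named gene of the table (blue squares) in the 5 libraries, 1 per tissue. Bag6, Rg9mtd2 and Sik3 vary by at most 1.334-fold and Tomm40l by 2.21-fold, while the red points span 27.4-fold or more.

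Of 59 further genes of lipoprotein metabolism on 4 lists, 35 were found, 4 of them higher in liver than in each other library, beside 0.824% of named loci. In at least 1 of the 10 pairs 8 of the 35 met the size rule, beside 11.8% of named loci, and 27 met it in none. Values below are in FPKM for liver, ventral pancreas, dorsal pancreas, medial foregut and foregut. Soat2, which makes cholesteryl esters for particles, stood at 53.3, 5.29, 0.735, 2.96 and 2.58. Pla2g12b, needed in mice for the secretion of triglyceride-rich particles, stood at 37.6, 3.70, 0.169, 1.46 and 1.12. A1cf, for a partner of the enzyme that edits Apob mRNA, stood at 32.9, 6.22, 4.19, 0.0205 and 0.0528. These 3 assembly genes were all higher in liver than in each other library. Dgat2, which makes triglyceride, stood at 83.4, 21.7, 7.87, 10.6 and 10.8 and was higher in liver than in 3 of the other 4.

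Between the libraries P4hb, Sar1b and Dgat1 differed less. P4hb, which encodes the partner subunit of the Mttp protein, stood at 521, 297, 277, 429 and 363 FPKM in the order given, so its levels spanned less than those of Mttp. Sar1b, a GTPase for large cargo, stood at 50.2, 29.8, 26.5, 32.0 and 30.2 FPKM, and Dgat1, another enzyme of triglyceride synthesis, at 10.7, 12.7, 14.4, 12.4 and 12.7 FPKM. Of the 13 sterol synthesis genes found, of 18, 0 met the size rule in any of the 10 pairs, as most named loci did not, so the list is not set apart by this.

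Among genes that handle particles in plasma or at the cell surface, Lpl, for lipoprotein lipase, stood at 224, 38.7, 9.73, 16.2 and 20.2 FPKM, from 5.59% of its annotated span. Lipc, for hepatic lipase, stood at 17.6, 5.14, 1.57, 0.467 and 0.849 FPKM. Of these, Lpl was higher in liver than in each other library. Abca1, for a cholesterol exporter, stood at 48.8, 13.3, 6.72, 2.27 and 2.40 FPKM. Sorl1, for a sorting receptor, stood at 1.19, 8.35, 4.96, 4.51 and 3.80 FPKM and was lower in liver than in ventral pancreas. Loci of Pla2g12b, Sar1b and Dgat1 were longer than annotated, at 216%, 354% and 1324% of the span.

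**Figure D5:**
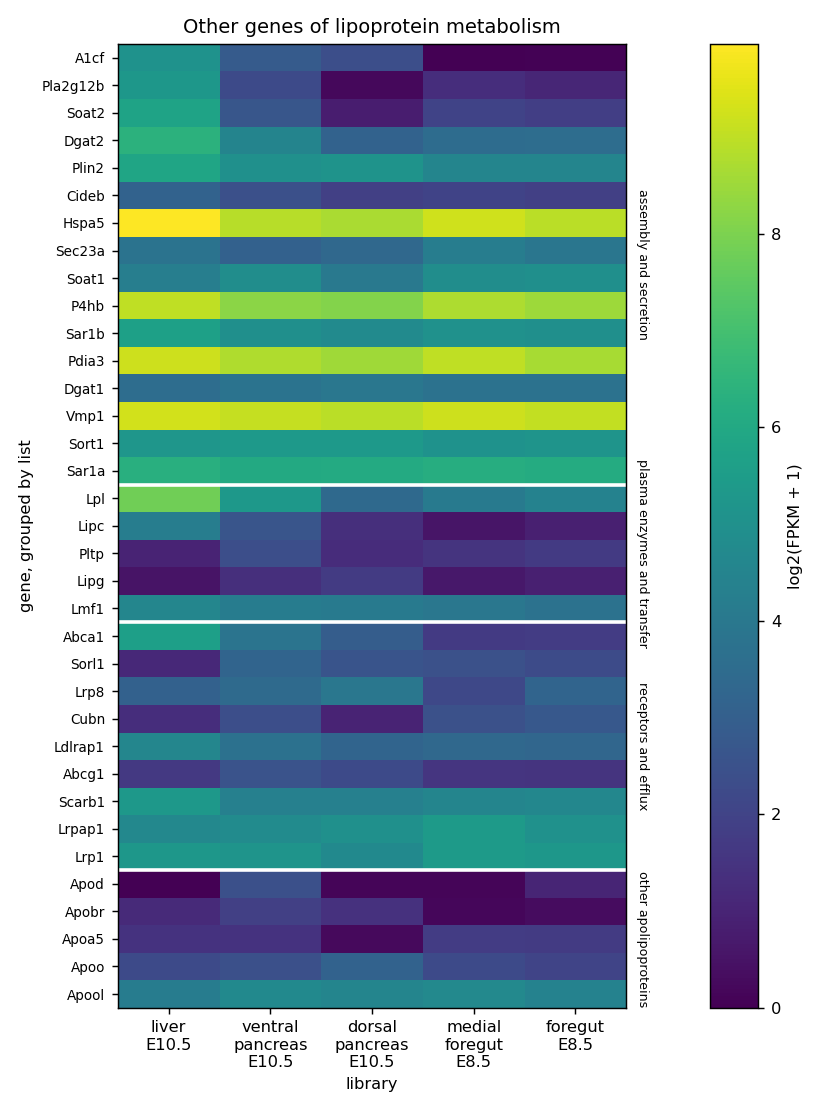
Levels as log2(FPKM + 1) of the 35 further genes of lipoprotein metabolism (rows, by list and then by range across libraries) in the 5 libraries (columns). In the assembly list A1cf, Pla2g12b, Soat2 and Dgat2 are highest in liver, and so is P4hb, which is high in all 5.

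Of the transcription factors known to act in liver and on apolipoprotein genes, 17 were found. Among them 10 met the size rule in at least 1 of the 10 pairs, beside 11.8% of named loci, and 7 met it in none. Higher in liver than in each other library were 2 of the 17, beside 0.824% of named loci. The 6 with the largest range are given, in FPKM and in the same order of libraries, and they were picked for that range. Hnf4a, for a nuclear receptor, stood at 158, 31.3, 13.0, 2.30 and 3.30. Cebpa stood at 47.3, 18.0, 2.82, 0.111 and 0.282. Creb3l3, for a membrane-bound factor of lipid metabolism, stood at 20.3, 2.36, 0.244, 0.801 and 0.506. Hnf4a and Creb3l3 were higher in liver than in each other library. Nr5a2, at 22.7, 45.1, 17.1, 0.531 and 1.65, and Onecut1, at 11.9, 78.0, 18.3, 2.12 and 4.45, had more in ventral pancreas than in liver. Prox1 stood at 30.3, 9.66, 11.5, 1.65 and 2.41, from a locus whose strand is opposite to the annotation.

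Profiles like those of the 7 were sought by the root mean square distance between profiles of log2(FPKM + 1) over the 5 libraries, each centred on its own mean. Nearest to the mean of the 7 were Shbg, Fgb, Hpx, Lect2, Kng1, Itih3, C3, Plg, Igsf1 and Aass, at distances of 0.21 to 0.47, with the Lect2 locus at 431% of its annotated span. Shbg, for sex hormone-binding globulin, had 45.3 FPKM in liver, with 4.42 FPKM for ventral and 0.0205 FPKM for dorsal pancreas, and was listed at 0 in both E8.5 libraries. Plg, for plasminogen, stood at 329, 31.5, 1.73, 4.65 and 7.22 FPKM in the order given above and was the nearest gene to Apoa1 alone, at 0.27. For Apoa2 the nearest was Alb, at 0.35, for Mttp it was Lpl, at 0.27, and for Apoc2 it was Hpx, for hemopexin, at 0.20. Outside the 7, the nearest to Apoc1 was Gm5424, at 0.25, to Apob Soat2, at 0.42, and to Apom Shbg, at 0.12. The closeness of Shbg depends on the 1 FPKM added before the log. Apom stood at 4.40, 5.66 and 4.91 FPKM in dorsal pancreas, medial foregut and foregut, where Shbg stood at 0.0205, 0 and 0 FPKM. Within the 7, Apoc2 and Apom were nearest to each other, at 0.27, as were Apob and Mttp, at 0.38. Apoa2 lay farthest from the mean of the 7, at 1.74, and Apom closest, at 0.15.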

How the data were processed

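The authors deposited 1 table of FPKM values, with 1 column per library, per the file headers. TopHat 1.33, Cufflinks 1.3.0 and mm9 are listed in the submitters' processing notes, without saying what each was used for. The scaling between libraries is not stated in the sources used here. Columns were assigned to tissues by the column name that each sample's label carries. Of 14053 loci, 1678 had no gene name and were left out. Depth in reads is unknown: of 229 loci below 0.2 FPKM in both E8.5 libraries, 7 shared the commonest ratio (bins of 0.02 on the log2 scale), so whole reads were not recovered and no interval is given.

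Differences were taken on log2(FPKM + 1), a scale on which changes of low genes come out too small. Alternatives were other pseudocounts, minimum levels, sizes and scalings. The members, lists and rules were chosen with earlier results of these data known. Named are the 7 genes, the 10 loci nearest in profile among those reaching 5 FPKM in a library, the nearest gene to each member, genomic neighbours, pathway genes that partner a member or met the size rule, and the 6 factors with the largest range. GENCODE M21 and RefSeq, both GRCm38, gave strand, span and promoter windows, while all other coordinates are those of the table, whose starts may count from 0 or 1. Some genes of the lists are not reported here and were left out of their counts. The counting was tested on simulated data. Python 3.11.15, pandas 2.3.3, numpy 2.4.6 and matplotlib 3.10.9 were used.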

Additional observations from a re-analysis of the deposited data

Results flagged for a closer look

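In 5 of the 7 genes the dorsal pancreas library lay below both E8.5 libraries while liver and ventral pancreas lay above both, whatever the size of the difference. Among all named loci 2.55% showed this pattern. Of the 3165 with liver and ventral pancreas above both, as was so for all 7 genes, 316 or 9.98% showed it. In dorsal pancreas Apoa1 stood at 1.97 FPKM, Apob at 0.117, Apoc2 at 0.235, Apom at 4.40 and Mttp at 3.90. The difference in direction was not tested, since each tissue has 1 library. For Apoc2 and Apom, dorsal pancreas minus foregut was only -0.30 and -0.13 on the log2(FPKM + 1) scale.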

How the results depend on the processing

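No difference of a named member that met the size rule changed sign under an alternative. The counts for liver against each other library stayed at 7 of 7, apart from 6 of 7 for liver minus ventral pancreas, and so for all 4 together, with a pseudocount of 5 FPKM, where Mttp differed by 1.98, and 5 of 5 without Apoa2 and Mttp. A pseudocount of 5 FPKM also gave 2 genes for ventral minus dorsal pancreas in place of 5, 2 for ventral pancreas minus foregut in place of 4, and 0 for dorsal pancreas minus foregut in place of 1. Leaving out Apoa2 and Mttp, which was decided after the data had been seen, gave 3 for ventral minus dorsal pancreas. For dorsal pancreas minus foregut, 1 gene was lower in place of 0 with a pseudocount of 0.1 FPKM, namely Apoa1 at -2.06. With a minimum of 1 FPKM or no minimum 1 gene was lower, and this was Apob. With a size of 1 the count was 2, Apoa1 and Mttp. A size of 1 also gave 1 higher and 2 lower for dorsal pancreas minus medial foregut. Median differences with a pseudocount of 0.1 FPKM were 7.75 for liver minus dorsal pancreas, 3.83 for ventral minus dorsal pancreas and -0.89 for dorsal pancreas minus foregut. With 5 FPKM they were 4.20 for liver minus dorsal pancreas, 4.50 for liver minus foregut, 4.19 for liver minus medial foregut and 1.67 for ventral minus dorsal pancreas. Of the 10 nearest genes, 5 were shared with a pseudocount of 0.1 FPKM and 6 with 5 FPKM. A pseudocount acts on low values by its construction. No paired analysis was possible because each tissue has 1 library, so none could be left out either.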
